A study of Caenorhabditis elegans with 2 samples.

Results

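The ONECUT homeobox genes of Caenorhabditis elegans considered here were ceh-39, ceh-21 and ceh-41, which lie side by side on the X chromosome, and ceh-38 on chromosome II. They were 4 of the 19973 protein-coding genes in the annotation. They were taken by name, and they had been selected with the peak lists already seen, so their presence in the lists is given as a description with no test. The lists came from chromatin immunoprecipitation with sequencing (ChIP-seq), which maps where a protein sits on DNA, of the homeobox protein CEH-82 carrying a green fluorescent protein tag (eGFP). Both samples were whole larvae of stage L2, pooled male and female, of strain OP212, whose labelled genotype is unc-119(ed3) III with ddEx58. The designation Ex stands for an extrachromosomal array, a kind of transgene that not every cell of an animal need keep, although the labels also speak of an insertion. There were 2 biological replicates of this 1 group. No other strain, stage or factor was analysed here, and a peak can come from any tissue.

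ONECUT proteins bind DNA through a single cut domain followed by a homeodomain, and in mammals the family includes the hepatocyte nuclear factor 6 type regulators of liver, pancreas and neurons. In C. elegans ceh-39 is known as an X signal element, a gene on X whose dose helps to set sexual fate by repressing xol-1, the switch gene of sex determination. The ONECUT genes are also known to act, with other CUT homeobox genes, on genes that all neurons express. None of these roles was measured here. The lists show where tagged CEH-82 was recovered at the ONECUT genes, not what these genes did.

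Each deposited list gives intervals on build ce11 with a summit, the base of highest signal, and the authors' signal value, a score with no stated scale. Around the ONECUT genes all intervals of a list were equally long and centred on the summit. Their edges therefore restate the summit position and do not measure how far binding extends. The list called optimal IDR below holds the 537 regions of the pooled list that passed the authors' irreproducible discovery rate threshold, and these are called reproducible peaks. The name stands for passing that threshold only. Of the 537, 486 had a summit within 100 bp in the lists of both replicates. The pooled list, called on both replicates together, has 9070 regions, and each replicate list has 30000, which include background. Rank 1 is the highest signal value of a list. Ranks of lists of different lengths are set side by side and show no change. Signal values ran between 21.1 and 211 (median 28.2) in the optimal IDR list and between 7.40 and 211 (median 8.98) in the pooled list. In the replicate lists the medians were 3.34 in replicate 1 and 4.12 in replicate 2. The promoter window of a gene reached from 1000 bp before its annotated start to 200 bp after it, and the gene body ran between its first and last base; a summit counted for each of these that held it. Read counts are not part of these lists, and the depth behind each value is unknown.

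The DNA upstream of each annotated start is shown first, because it holds the reproducible peak summit of ceh-39 and the close spacing of the other X genes. Each sequence runs 5′ to 3′ on the strand of its gene, ends at the base before the annotated start, and begins at the base after the neighbouring gene. All 4 were read from the RefSeq genome of assembly WBcel235, which is ce11. In ceh-39 (chrX:1856173-1856472, minus strand) capitals mark the summits, each with the bases around it, 42 bases in all. In ceh-21 (chrX:1852737-1852837, minus strand) and ceh-41 (chrX:1848676-1848778, minus strand) capitals mark a run of 11 bases that both contain. In ceh-38 (chrII:6951301-6951525, plus strand) capitals mark the 80 bases that lie inside its reproducible peak.
ceh-39: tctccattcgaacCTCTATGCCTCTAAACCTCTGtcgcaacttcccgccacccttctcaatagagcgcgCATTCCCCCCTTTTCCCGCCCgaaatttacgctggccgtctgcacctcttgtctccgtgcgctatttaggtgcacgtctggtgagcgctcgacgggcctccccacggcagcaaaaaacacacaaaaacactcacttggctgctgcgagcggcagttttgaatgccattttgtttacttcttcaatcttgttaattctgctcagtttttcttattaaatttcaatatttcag
ceh-21: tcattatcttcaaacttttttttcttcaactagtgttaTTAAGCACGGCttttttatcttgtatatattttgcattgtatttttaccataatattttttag
ceh-41: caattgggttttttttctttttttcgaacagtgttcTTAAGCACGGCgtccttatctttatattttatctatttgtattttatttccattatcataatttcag
ceh-38: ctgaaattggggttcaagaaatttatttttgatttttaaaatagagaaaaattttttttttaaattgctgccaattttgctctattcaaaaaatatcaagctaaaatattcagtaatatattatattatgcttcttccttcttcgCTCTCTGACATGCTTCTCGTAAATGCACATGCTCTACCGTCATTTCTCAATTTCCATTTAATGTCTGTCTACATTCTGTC
The ceh-39 sequence was 300 bp long with a G+C content of 49%, and its first capitals are centred on base 24, the replicate 1 summit. Its later capitals are centred on base 80, the summit shared by the optimal IDR, pooled and replicate 2 lists. The sequences of ceh-21 (101 bp, 22.8% G+C) and ceh-41 (103 bp, 27.2%) were shorter and richer in A and T, as was that of ceh-38 (225 bp, 28.9%). Within them the only listed summit was at base 85 of the ceh-21 sequence, in the replicate 1 list.

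Reproducible peaks had their summits near the annotated starts of ceh-39, in the X cluster, and of ceh-38, and none lay in the window of ceh-21 or ceh-41. In the X cluster 1 of 3 genes had a reproducible summit in its promoter window, and the single autosomal member, ceh-38, had one too. Over the whole annotation 2.54% of protein-coding genes had such a summit, 2.31% on X and 2.58% on autosomes. In the pooled list the count was again 2 of 4 members, ceh-39 and ceh-38, beside 15.5% of all genes. Replicate 1 listed a summit in the windows of ceh-39, ceh-21 and ceh-38, that is 3 of 4, beside 37.2% of all genes. Replicate 2 listed 2 of 4, ceh-39 and ceh-38, beside 36.9%. A summit in both replicate lists was found for 2 of 4, the same pair, beside 17.9% of all genes. As the members were selected on these lists, nothing is read from how their counts stand to the shares of all genes.

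**Figure D1:**
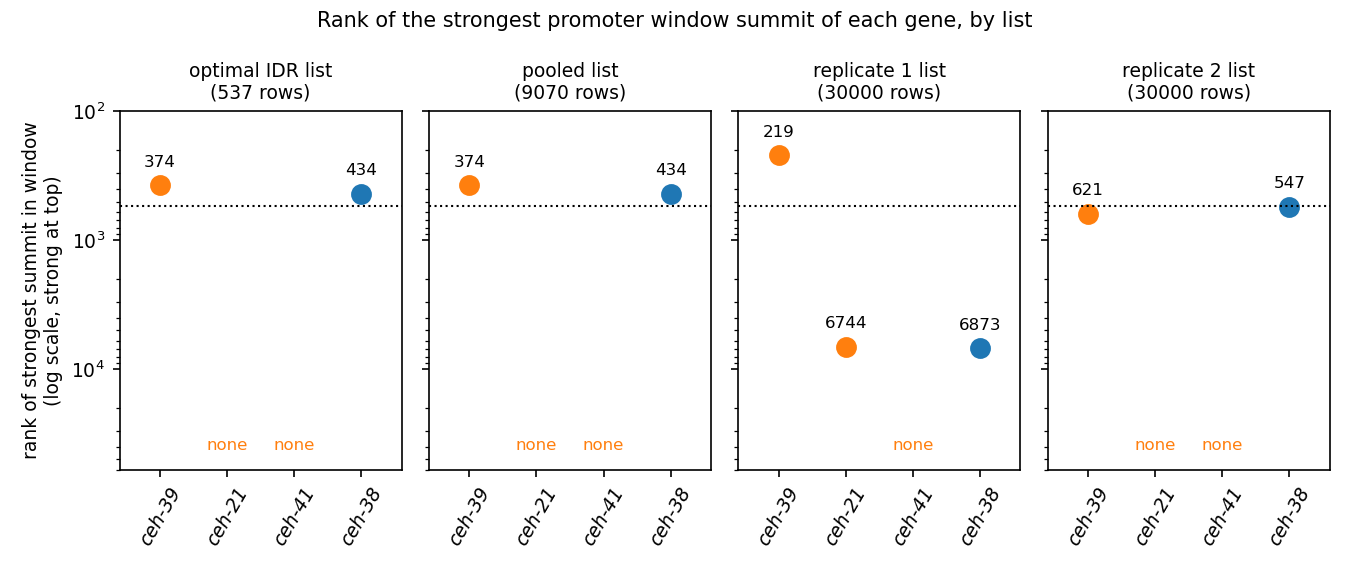
Rank of the strongest summit in the promoter window of each ONECUT gene in each list (log scale, strongest at the top), with the X cluster genes in orange and ceh-38 in blue; the dotted line is at rank 537, the length of the optimal IDR list, and "none" marks a gene with no summit in its window. ceh-39 lies at 219 to 621 in all 4 lists, while ceh-38 lies at 434 to 547 in 3 of them and at 6873 in replicate 1.

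ceh-39 (WBGene00000460, chrX:1853874-1856172, minus strand, 2299 bp, 5 exons) had a listed summit in its promoter window in every list. The reproducible peak spanned chrX:1856261-1856524, with its summit 221 bp upstream of the annotated start, in intergenic DNA. Its signal value was 24.8 and its −log10 q was 2.93, the highest in that list and shared by 429 of the 537 regions. By signal it ranked 374 of 537, and 73 of the 116 reproducible peaks on X. In replicate 1 the summit had a signal value of 11.1 and ranked 219 of 30000 (0.73%), and in replicate 2 it had 13.5 and ranked 621 (2.07%). The replicate 1 summit lay 277 bp upstream of the start, 56 bp farther out than the other 3. The replicate intervals, each centred on its summit, overlapped and were shifted with the summits. They were chrX:1856304-1856593 in replicate 1 and chrX:1856253-1856532 in replicate 2. Both replicates placed the site among the strongest few percent of their regions, and the ranks differed by a factor of 2.84. No list had a summit between the first and last base of ceh-39.

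The same DNA also belongs to the window of T26C11.10, a noncoding RNA gene on the opposite strand, separated from ceh-39 by 300 bp. The peak interval overlapped the start of T26C11.10 and ended short of that of ceh-39. Its edges only restate that the summit lay nearer to the start of T26C11.10. The reproducible summit lay 80 bp upstream of that start (-80 bp) and the replicate 1 summit 24 bp upstream (-24 bp). Which of these genes, if either, the site acts on is not something the lists measure. Farther out, a summit in a transfer RNA gene lay at -2672 bp from the start of ceh-39. It ranked 1173 in the pooled list and 646 in replicate 2, but the nearest summit of replicate 1, at -2768 bp, ranked 29139. The replicates therefore ranked the ceh-39 site more alike than the transfer RNA gene.

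ceh-21 (WBGene00000444, chrX:1848779-1852736, minus strand, 3958 bp, 7 exons) had its most repeated summit inside the gene, not at its start. In the pooled list it lay at 2931 bp after the start, in exon 6 and in the 3′ untranslated region, with a signal value of 10.2 and rank 2928 (32.3%). Its −log10 q was 0.28, against 2.93 for the ceh-39 site. Replicate 1 had a summit 2868 bp after the start with rank 4840 (16.1%), and replicate 2 had one 2950 bp after the start with rank 7283 (24.3%). All 3 lay in the stronger part of their lists, with signal values above the list medians, but short of the strongest few percent. At the start of ceh-21 only replicate 1 listed a summit, 17 bp upstream, with a signal value of 4.46 and rank 6744 (22.5%). The closest replicate 2 summit lay outside the window, at -1132 bp, with rank 17038. It fell between the end of ceh-39 and the start of T26C11.9, the small protein-coding gene that separates ceh-39 from ceh-21, at -19 bp from the start of T26C11.9. The nearest reproducible summit was that of ceh-39, 3657 bp upstream.

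ceh-41 (WBGene00000462, chrX:1846608-1848675, minus strand, 2068 bp, 4 exons) had no summit in its promoter window in any of the 4 lists. Its only listed summit was in replicate 2, 831 bp after the start, in coding sequence of exon 3. It had a signal value of 3.22 and rank 25350 (84.5%), near the weak end of that list. The summits in the 3′ untranslated region of ceh-21 lay just outside the ceh-41 window, at -1130 bp in the pooled list, -1193 bp in replicate 1 and -1111 bp in replicate 2. The nearest reproducible summit was 7718 bp upstream. The gene after ceh-41, T26C11.4, had a summit at -87 bp in replicate 1 only, with rank 5077.

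**Figure D2:**
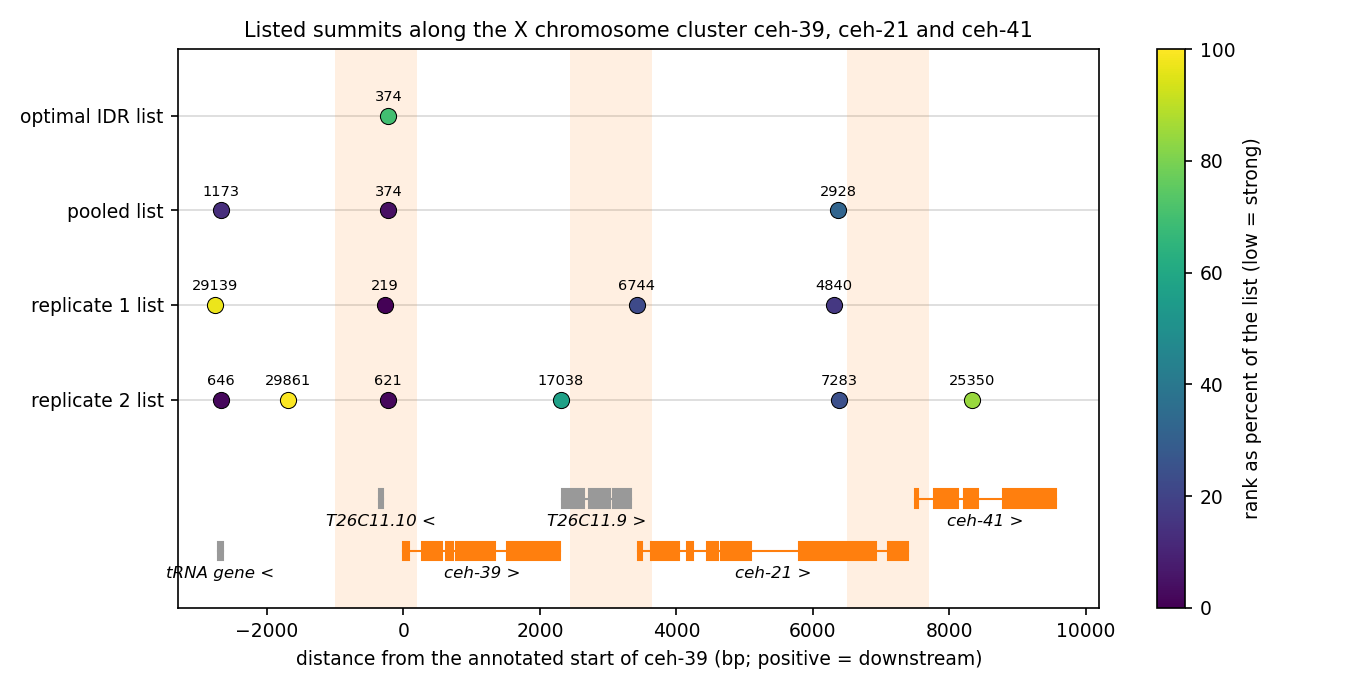
Summits along the X cluster by distance from the annotated start of ceh-39 (bp, positive downstream along that gene), 1 row of points per list, each with its rank and coloured by rank as a percent of the list; boxes are exons, arrowheads give direction relative to ceh-39, and shaded bands are the promoter windows of the ONECUT genes. The reproducible summit lies at -221 bp, and the pooled summit with rank 2928 lies between the windows of ceh-21 and ceh-41.

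The spacing of the X genes differed along the cluster. ceh-39 had 300 bp of intergenic DNA upstream and an annotated 5′ untranslated region, with its first coding base 296 bp after the start. ceh-21 followed T26C11.9 after 101 bp and ceh-41 followed ceh-21 after 103 bp, each on the same strand as the gene before it. Of 19968 protein-coding genes with a neighbour, 4.57% had an upstream neighbour on the same strand with a gap of at most 103 bp. For ceh-21 and ceh-41 the annotated start is the first base of the start codon, as it is for 23.5% of genes. Many C. elegans messenger RNAs are trans-spliced, that is, a leader from another RNA is joined at an AG in the genome, so that an annotated start need not be where transcription begins. All 3 X sequences above end in ag, as do those before 27.6% of protein-coding genes, and the ceh-38 sequence does not. The distances given here are therefore distances from the annotation.

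The 11 bases shared by the ceh-21 and ceh-41 sequences began 63 bp and 67 bp before the annotated starts (-63 and -67 bp). They were noticed after the sequences had been read. Another shared run of 11 bases, 10 of them T, was left unmarked because it occurs 4682 times in the nuclear genome, against 189 times for the run in capitals, both strands counted. The marked run occurred at 2 places in the cluster locus, in 0.18% of all promoter windows, and in 0 of 537 reproducible summit windows, where a summit window is the summit with 100 bp on each side. No listed summit fell on it in either gene. In ceh-21 it lay at chrX:1852789-1852799, inside the interval chrX:1852608-1852897 of the replicate 1 summit near the start.

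ceh-38 (WBGene00000459, chrII:6951526-6955409, plus strand, 3884 bp) had its reproducible summit 52 bp after the annotated start. The peak spanned chrII:6951446-6951709, with a signal value of 22.9, a −log10 q of 2.46 and rank 434 of 537. It was 64th of the 79 reproducible peaks on chromosome II and lay nearer the weak end of the list than the ceh-39 site. In replicate 1 the summit had a signal value of 4.45 and ranked 6873 (22.9%), and in replicate 2 it had 14.4 and ranked 547 (1.82%). The −log10 q of this site was 0.57 in replicate 1 and 3.09 in replicate 2, against 2.97 and 2.62 at the ceh-39 site. All 4 lists named the same base as the summit. The position was thus identical between replicates while the rank differed 12.6-fold. At ceh-39 the ranks were 2.84-fold apart and the summits 56 bp apart. These rank gaps hold for ranking by signal value only. Ranked by significance, where 468 regions of replicate 1 and 616 of replicate 2 tie at rank 1, ceh-39 was at 1 in replicate 1 and 904 in replicate 2, and ceh-38 was at 6528 in replicate 1 and 1 in replicate 2.

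The summit lay in the 5′ untranslated region of the longest transcripts and so counted for both the promoter window and the gene body. ceh-38 has 24 annotated transcripts with 11 distinct starts. The summit lay upstream of 10 of these starts, which serve 21 transcripts, and 5 of them were within 100 bp of it, at -41 to -88 bp. The other starts downstream were farther, with the summit at -419 to -492 bp from them. malt-1, which encodes a paracaspase related to human MALT1, lies upstream on the opposite strand, separated by 225 bp, and its window held the same summit at -278 bp. Divergent genes that share a site cannot be told apart by position.

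**Figure D3:**
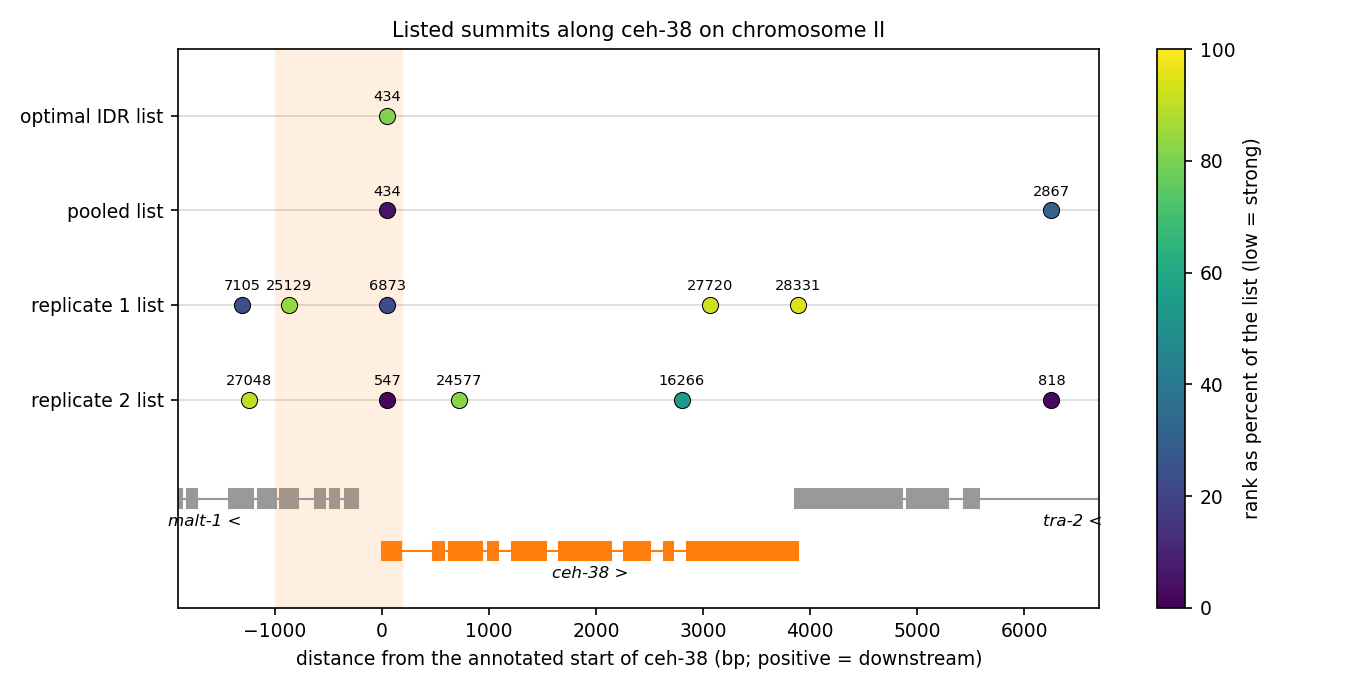
Summits along ceh-38 by distance from its annotated start (bp, positive downstream), drawn like the map of the X cluster, with the longest transcript of each gene shown. All 4 lists place a summit at 52 bp, with ranks 434, 434, 6873 and 547, and the other summits in the window or gene have rank 16266 or a weaker one.

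Other summits in the window or gene of ceh-38 were weak. Just outside the window, in coding sequence of malt-1, replicate 1 listed a summit at -1305 bp with rank 7105 and a signal value of 4.40. These values were close to those of the ceh-38 site in that replicate, rank 6873 and 4.45. Replicate 2 had one at -1244 bp with rank 27048. Replicate 1 listed one in the window at -864 bp with rank 25129 and others in the gene with ranks 27720 and 28331. Replicate 2 listed one in coding sequence 720 bp after the start with rank 24577 and one in an intron with rank 16266. Past the gene, tra-2, a sex determination gene on the opposite strand whose 3′ end overlaps that of ceh-38 by 26 bp, had an intron summit with rank 2867 in the pooled list and 818 in replicate 2, and replicate 1 listed none there.

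In the gene body, 0 of 3 X cluster genes and ceh-38 had a reproducible summit, beside 0.566% of all protein-coding genes. The pooled list had a body summit in ceh-21 and ceh-38, beside 19% of all genes. Replicate 1 had one in the same pair, beside 50.3%, and replicate 2 had one in ceh-21, ceh-41 and ceh-38, beside 49.2%. Body length matters for such counts. Among genes 0.8 to 1.25 times as long as ceh-21, 25.9% had a pooled body summit, 71.0% a replicate 1 summit and 69.4% a replicate 2 summit. For genes of the length of ceh-39, whose body held none in any list, the shares were 15.2% in the pooled list, 51.8% in replicate 1 and 50% in replicate 2. For genes of the length of ceh-41 they were 12.8%, 48.2% and 45.6% in the same lists, and for those of the length of ceh-38 they were 25.1%, 69.7% and 68.6%.

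The gap between replicates at ceh-38 was set beside the other reproducible peaks. Of the 537 reproducible peaks, 486 had a summit within 100 bp in both replicate lists. Among these the median rank was 321.5 in replicate 1 and 281.5 in replicate 2. A replicate 1 rank of 6873 or beyond was found at 40 of the 486 (8.23%), so ceh-38 was in the weak tail of that replicate, although not alone there. A replicate 1 rank of 219 or better, that of ceh-39, was found at 197 (40.5%). In replicate 2, 62 peaks (12.8%) ranked at or beyond ceh-39 and 82 (16.9%) at or beyond ceh-38. The ceh-39 site was therefore ordinary in replicate 1, and both sites were among the weaker reproducible peaks in replicate 2.

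The genes whose strongest promoter summits ranked most like those of each member were found over the 2088 protein-coding genes compared, each with a summit in the pooled list and both replicate lists. Likeness was the Euclidean distance of log10 rank over these 3 lists. Nearest to ceh-39 was nhx-5, a sodium/proton exchanger gene on X, with ranks 382, 229 and 568 in the pooled, replicate 1 and replicate 2 lists (distance 0.044). Next, at 0.14, were prp-8, which encodes a core splicing factor, and bath-42, which share a peak on chromosome III with ranks 376, 228 and 456. Nearest to ceh-38 was malt-1, by the peak they share. After it came F22F1.3 on X, with ranks 583, 6773 and 459 (distance 0.15), and Y75B12B.11 on chromosome V, with 548, 6715 and 723 (0.16).

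On either chromosome the member's peak had a near reproducible neighbour on one side and a far one on the other. The ceh-39 peak was 229272 bp from the reproducible peak before it and 24577 bp from the one after it, where the median spacing on X was 114866 bp. The ceh-38 peak was 362505 bp and 16921 bp from its neighbours, where the median on chromosome II was 114089 bp.

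The base composition of the summits differed between the members. The summit window of the ceh-39 reproducible peak had 58.7% G+C, and 23 of the 537 reproducible windows (4.28%) were at or above this. The ceh-38 window had 46.3%, the same as the median of the 537 windows, whose quartiles were 41.8% and 51.7%. All pooled windows had a median of 38.3%.

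The search for motifs covered both strands and 4 motifs. ATCGAT is a core of sites bound by cut and ONECUT proteins. TAATTA is a homeodomain core, and a second such core is CAATTA. These homeodomain cores differ only in their first letter. On the opposite strand CAATTA reads TAATTG, while TAATTA reads the same on both strands. The fourth was the repeat GAGAGAGA. None was within 100 bp of any summit in a member's promoter window. Among all 537 reproducible windows ATCGAT was in 11.2%, TAATTA in 5.77%, CAATTA in 6.33% and GAGAGAGA in 14.2%, so that most reproducible peaks also lacked any given motif. In the whole promoter windows, ceh-39 had CAATTA once, at -572 bp, and ceh-41 had it once, at -259 bp. ceh-21 had none of the 4. The ceh-38 window held ATCGAT once, at chrII:6951680-6951685, between 102 and 107 bp downstream of the summit, and TAATTA at -675 and -488 bp. Among 19972 promoter windows of this length 34.7% held ATCGAT, 47.4% TAATTA, 66.2% CAATTA and 8.70% GAGAGAGA. These are matches of letters and show neither binding nor its absence.

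Related genes were described in the same way. The 4 members need not be all the ONECUT genes of the animal, and the lists below were made by name. The CUT genes outside the members were not sorted by family and may include ONECUT genes. Members and other CUT genes are therefore not a contrast of families. Of 4 CUT homeobox genes outside the members, 0 had a reproducible summit in the window. A pooled one was found for 1 of them, ceh-49, at rank 1463, with ranks 4318 in replicate 1 and 2160 in replicate 2. ceh-48 had a summit in replicate 1 only (rank 10406), and dve-1 in replicate 2 only (rank 8896). ceh-44, placed by its RefSeq coordinates, had none in the window, but its body held a pooled summit of rank 1409. Of the 96 other homeobox genes in the list, 0 had a reproducible summit, 8 (8.33%) a pooled one, 35 (36.5%) one in replicate 1 and 28 (29.2%) one in replicate 2. The shares of all protein-coding genes in these 4 lists were 2.54%, 15.5%, 37.2% and 36.9%. With a share of 2.54%, a count of 0 among 4 genes says little. ceh-82, the gene of the tagged protein, had no summit in its window in any list.

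Of 10 matched genes of the X signal and dosage compensation pathway, in which ceh-39 is known to act, 0 had a reproducible summit, 2 had a pooled one and 4 had one in each replicate list. Among all protein-coding genes 2.54% had a reproducible summit, 15.5% a pooled one, 37.2% one in replicate 1 and 36.9% one in replicate 2. Nothing about the pathway is read from these counts. sdc-2, which directs the dosage compensation complex to X in hermaphrodites, had pooled rank 619, with 13124 in replicate 1 and 444 in replicate 2. dpy-27, a subunit of that complex, had pooled rank 818, with 2431 in replicate 1 and 1687 in replicate 2. xol-1, the target of ceh-39, had no pooled summit, but had rank 3964 at -7 bp in replicate 1 and rank 14592 at -492 bp in replicate 2. Both replicates thus listed xol-1, at different places and weakly in replicate 2.

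Of 20 genes expressed in all neurons, 2 had a reproducible summit in the promoter window, 9 a pooled one, 11 one in replicate 1 and 13 one in replicate 2. The shares of all protein-coding genes were 2.54%, 15.5%, 37.2% and 36.9% in the same order. rab-3, which encodes a synaptic vesicle GTPase, had none of the reproducible or pooled summits in its window, but its gene body held a reproducible summit of rank 520. snb-1, which encodes synaptobrevin, ranked 67 of 537 with a signal value of 52.8 at -358 bp, and so stood above both ONECUT peaks. syd-2, which encodes liprin-alpha of the presynaptic zone, ranked 491 with 21.8 at -445 bp, below both. Next in the pooled list were maco-1 (rank 743), ric-19 (1282), tbb-1 (1703) and egl-21 (2273). None of these counts was tested.

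**Figure D4:**
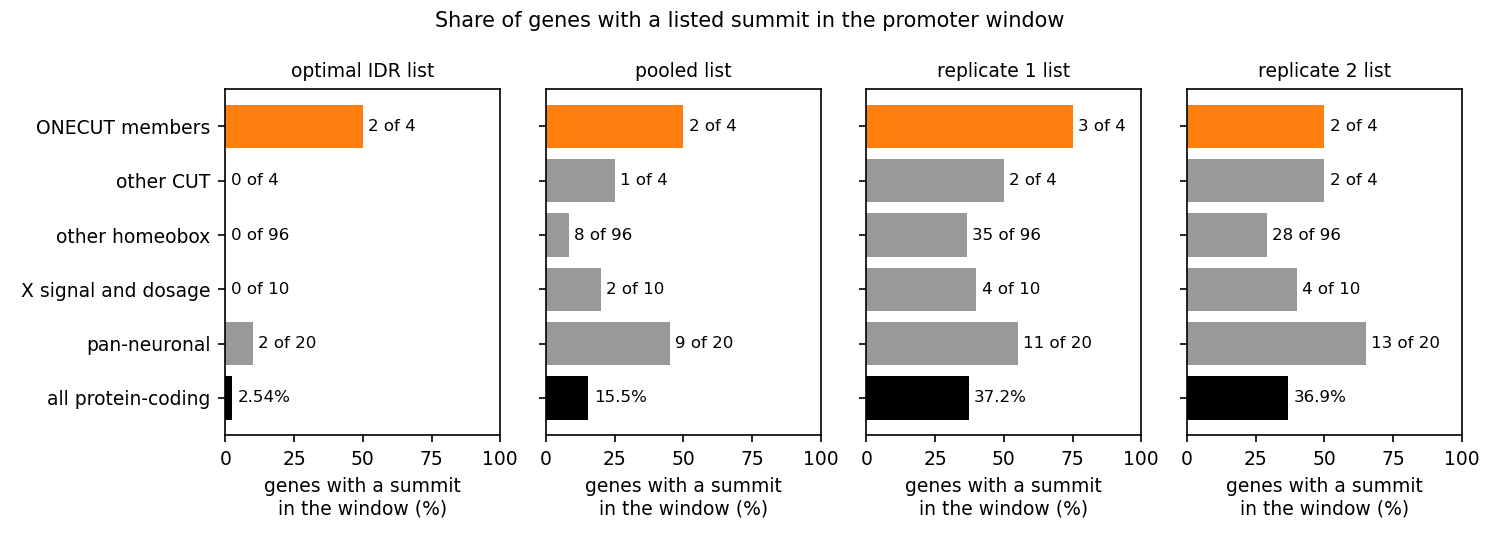
Percent of genes with a listed summit in the promoter window, by list, for the 4 ONECUT genes considered here (orange), the related gene lists (grey) and all 19973 protein-coding genes (black), with counts beside the bars. Of the 5 lists drawn, only the ONECUT and pan-neuronal ones hold genes with a reproducible summit, 2 of 4 and 2 of 20, and the ONECUT genes were selected on these lists. The other CUT list was not sorted by family and may include ONECUT genes.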

How the data were processed

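Peak lists of ChIP-seq from 2 biological replicates of 1 group were used as deposited, on ce11 (WBcel235). Per the deposited file descriptions, the authors called regions on each replicate and on the pooled reads, each time against a control, and thresholded the pooled list by irreproducible discovery rate. An aligner, a peak caller and a threshold value were not given in the sources used here. No control was analysed. Signal values are scores as the authors deposited them, of unstated scale. Significance was deposited as the −log10 of a q-value. The summit offset is a distance in bp that the authors deposited with each interval, and it was converted to a 1-based position. The lists on ce10 were not used, because the annotation is on WBcel235 and coordinates were not converted. Depth is unknown, as the files hold no counts.

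Ranks were by signal value in descending order. Summits were assigned with Ensembl release 115 genes, and sequence and the coordinates of ceh-44 came from RefSeq on the same assembly. Python 3.11.15, pandas 2.3.3, numpy 2.4.6 and matplotlib 3.10.9 were used. The window assignment was tested on simulated data. Nothing was tested statistically, since both samples formed 1 group. The members, gene lists, motifs and alternatives were chosen with earlier results of these data known. The text names the members, genes whose window holds a member's reproducible or pooled summit, immediate neighbours, genes of the short lists with a reproducible summit and up to 4 more by pooled rank, the tagged gene, and the 3 genes nearest each member in rank. Genes named beyond this, and the shared run of 11 bases, in which no base makes up more than 50% of the letters, were picked after their values or letters were seen. Of 12 names in the X signal and dosage list, 10 matched the annotation.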

Additional observations from a re-analysis of the deposited data

How the results depend on the processing

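No paired analysis was possible because the 2 samples form a single group. Of 43 values under other settings, 33 stayed within the limits used and 10 did not. A count was within them when it changed by at most 1.5 times, and a rank when it moved by no more than the SD of the gene's ranks in the replicates. That SD is wide for ceh-39 and ceh-38 and does not exist for ceh-21, so the tally is no measure of how stable the ranks are. The count of members with a reproducible promoter summit was 2, and it was 0 in the stronger 50% of that list. With the 537 strongest rows of a single replicate in its place, the count was 0 without replicate 1 and 1 (ceh-39) without replicate 2, a range of 0 to 1. The cause was not tested. The count for gene bodies was 1, and it was 0 without the first 200 bp, since its only summit lies there, and 0 without either replicate. With a window of 2000 bp upstream to 500 bp downstream, all 4 members, against 2, had a summit in both replicate lists. For ceh-41 the wider window takes in the summits in the 3′ untranslated region of ceh-21. For ceh-21 it takes in the replicate 2 summit of rank 17038, at -19 bp from the start of T26C11.9. The pooled count was then 3, with ceh-41 added. With overlap of the interval in place of the summit, the pooled count was also 3, with ceh-41 added. The count in both replicate lists was then 3, with ceh-21 added, and the count of reproducible peaks stayed at 2. Ranked by significance in place of signal, ceh-39 moved to rank 1 in the optimal IDR list and rank 1 in the pooled list, where 429 regions of either list tie at the top value. In replicate 1 ceh-21 ranked 6635 by significance, against 6744 by signal. ceh-38 ranked 533 in the optimal IDR list and 635 in the pooled list by significance, so ceh-39 stood above ceh-38 in these lists either way. In replicate 1 ceh-39 ranked 1 by significance, against 219 by signal, and ceh-38 ranked 6528, against 6873. In replicate 2 ceh-39 ranked 904, against 621, and ceh-38 ranked 1, against 547, so there ceh-38 stood above ceh-39 either way. No value could be had for ceh-39 in replicate 1 within 50 bp of the pooled summit, or for ceh-21, which has no pooled promoter summit. With no read counts, whether a missing summit reflects depth cannot be told.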
